A study of Mus musculus with 24 samples.

Results

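The HIF regulators and hypoxia targets are a list of 36 mouse genes. It holds 8 genes that form, hydroxylate or degrade the hypoxia-inducible factors (HIFs). The other 28, outside glycolysis, are known to rise in low oxygen or to be HIF targets. The list was chosen with earlier results of these data known, so its shares set against those of all genes are a description. The members are 36 of the 19938 genes measured. Each member was read from a probe set annotated with that gene symbol alone, and for the 5 members with several such probe sets the brightest one by mean log2 intensity over the 24 arrays was used. By their numbers, the probe sets used for Higd1a, Ak4, Bnip3 and Bnip3l stand among those of members on other chromosomes. Positions of probe sets were not checked, so for these members the one used may not lie at the gene. The 24 arrays hold total RNA of CD4 T cells of the 129SvEv strain, 3 arrays for each of 8 groups. One genotype, labelled Batf1/3DKO (DKO), lacks Batf and Batf3, basic leucine zipper factors that bind DNA beside IRF4, and the other genotype is wildtype (WT). In each genotype the cells were unstimulated naive CD4 T cells at day 0, cells in TH2-polarising culture for 2 days, or 4-day TH2 cultures. The 4-day cultures had anti-CD3e, which stimulates the T cell receptor, at 2.2 or 10 ng/ml. All cultured cells also received anti-CD28 held by an antibody on the plate, and no anti-CD3e concentration is given for day 2. The series asks, by its title, how graded receptor signals are turned into graded responses by BATF and IRF4.

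HIFs are pairs of an oxygen-sensitive alpha subunit (Hif1a or Epas1) and a stable partner (Arnt). When oxygen is plentiful, prolyl hydroxylases of the Egln family mark the alpha subunit, Vhl then delivers it to a ubiquitin ligase, and Hif1an blocks its contact with coactivators. When oxygen is scarce the alpha subunit lasts and switches on genes of glycolysis, mitochondrial turnover, glycogen, blood vessel growth and collagen folding. In T cells, receptor signals raise HIF without a fall in oxygen, and Egln3 and Egln1 are themselves HIF targets. The arrays measure messenger RNA, so HIF protein, which the hydroxylases control, was not measured here.

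Levels are array intensities on a linear scale with the spread over 3 arrays (SD), and an intensity of 28.6, the median of all probe set means, served as a guide. Signal no higher than this guide may be background, which makes folds against it too small. Fold changes are ratios of geometric means with a 95% confidence interval (CI), and a gene is called where limma's p, adjusted by Benjamini-Hochberg over all 19938 genes, is under 0.05. Log2 changes and differences are given ± the standard error (SE) of limma's fit, not the SD. The labels do not say whether the 3 replicates of a group were separate mice or cultures, and the spread behind each p-value is that of these samples and may be technical. Batf averaged 46.5 ± 4.87 in DKO cells against 1595 ± 99.8 in WT cells at 10 ng/ml, and the highest of 12 DKO arrays was under the lowest of 12 WT arrays. Batf3 averaged 29.8 ± 4.57 in DKO cells against 146 ± 32.8 in WT cells at 10 ng/ml and was near the guide in every other group, so it checks the label at that state alone. Irf4 averaged 896 ± 68.4 in DKO cells against 1304 ± 101 in WT cells at 10 ng/ml. The 5 measured T cell markers (Cd3d, Cd3e, Cd3g, Cd4, Cd5) were above the guide in all 8 groups. The summed intensity of these 5 was 3965 to 4545 in DKO cells and 3031 to 3295 in WT cells at day 2, and 4465 to 5511 in DKO cells and 4498 to 5775 in WT cells at day 4. Of 4 B cell markers, Cd79b averaged 88.8 ± 27.9 in DKO cells against 27.2 ± 4.15 in WT cells at 10 ng/ml, while Cd79a, Ms4a1 and Pax5 stayed at or below 20.7 in every group mean. The 4 B cell markers summed to 107 to 153 in DKO cells and 62.1 to 68.3 in WT cells at 10 ng/ml. The group means of all 6 myeloid and all 3 NK cell markers were below the guide, and 1 of 2 CD8 T cell markers and at most 1 of 2 red cell markers were above it. The part of these markers in the results below was not tested, and in bulk RNA fewer cells of a type and less RNA per cell cannot be told apart.

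Taken as one number per array, the geometric mean intensity of the 36 genes overlapped between the genotypes before activation and was lower in DKO cells in every activated state. At day 0 it was 74.9, 78.1 and 79.5 on the DKO arrays, against 74.9, 77.5 and 75.0 on the WT arrays. After 2 days it was 116, 121 and 111 in DKO cells, against 174, 178 and 149 in WT cells. At 2.2 ng/ml it was 104, 109.6 and 108 in DKO cells, against 171, 154 and 172 in WT cells. The groups overlapped at day 0 and did not overlap in any of the 3 activated states. At 10 ng/ml it was 221, 233 and 256 in DKO cells, against 343, 264 and 361 in WT cells, WT replicate 2 being the lowest of its group. Over all 19938 genes the same mean stayed between 37.5 and 39.6 on every array. The deposited values were made with RMA, which scales the arrays to each other. The mean over all genes therefore cannot show whether total RNA changed.

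**Figure D1:**
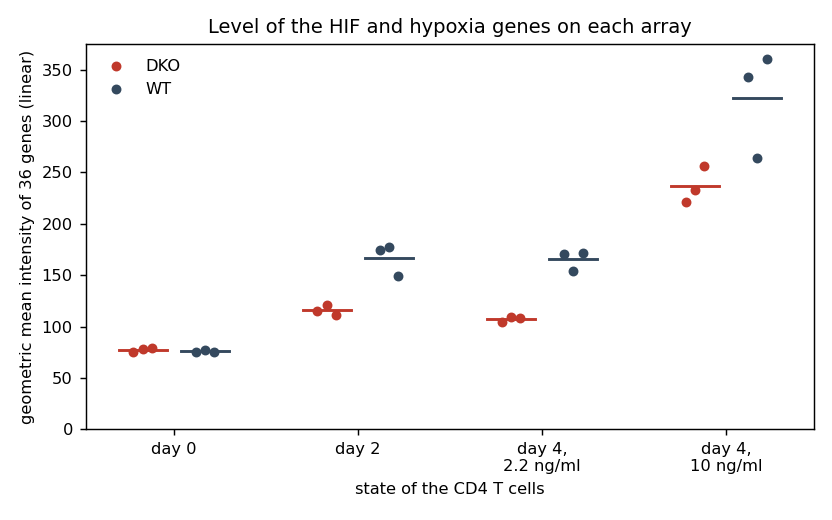
Geometric mean intensity of the 36 genes (linear axis from 0) on each of the 24 arrays, by state on the x axis, with DKO arrays left of WT arrays in each state; points are arrays and bars the mean of 3. The 3 DKO arrays lie below the 3 WT arrays at day 2 (116, 121 and 111 against 174, 178 and 149) and in both day 4 states, and overlap them at day 0.

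With activation, most of the members that changed rose, and more rose in WT than in DKO cells. At day 2, 13 members were higher and 4 lower in DKO cells over their day 0 (36.1% and 11.1% of the members, against 15.3% and 13.3% of all genes). In WT cells at day 2, 21 were higher and 1 lower (58.3% and 2.78%, against 19.7% and 20.5% of all genes). At 2.2 ng/ml, 10 were higher and 1 lower in DKO cells (background 11.6% and 8.28%), and 19 higher and 0 lower in WT cells (background 16.1% and 13.1%). At 10 ng/ml, 22 were higher and 0 lower in DKO cells (background 16.4% and 14.3%), and 27 higher and 1 lower in WT cells (background 18.4% and 18%). The median log2 change of the 36 at 10 ng/ml was 1.08 in DKO and 2.14 in WT cells, where the median over all genes was -0.05 and -0.10. In all 6 of these comparisons 10 members were called higher (27.8% of members, against 7.7% of all genes): Hif1a, Epas1, Plod2, Higd1a, Fam162a, Bnip3, Hilpda, Mif, Stc2 and Nrn1. The dimmer probe set of Higd1a did not rise at day 2 or at 2.2 ng/ml. The mean of its probe sets was called higher in all 6, but it holds the brighter probe set and is no separate support. The falls were of Cited2 in WT cells at day 2 and 10 ng/ml, of Cited2, Narf, Arnt and Ndrg1 in DKO cells at day 2, and of Ndrg1 in DKO cells at 2.2 ng/ml. Egln2, Hif1an, Plod1 and Kdm4b were called in none of the 14 contrasts, although Kdm4b was called at day 2 over day 0 in DKO cells without DKO day 2 replicate 2 (-0.46, 0.0279) and at 10 over 2.2 ng/ml in WT cells after cyclic loess (0.0446). Here and below, brackets after such an alternative hold its adjusted p, preceded by the log2 value where an array was left out. In WT cells at day 2, falls of Arnt and Kdm3a were called after cyclic loess (0.0206 and 0.00843) and a further quantile normalization (0.0379 and 0.0263). A fall of Narf there was called without WT day 2 replicate 3 (-0.52, 0.0468). In the other direction, Gys1 was called higher there after cyclic loess (0.0408) and quantile normalization (0.0233), and Vhl without WT day 0 replicate 1 (0.55, 0.0345).

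Mitochondrial, secreted and regulator genes were among the members that rose most. At 10 ng/ml the largest rises in DKO cells were of Nrn1 (80.3-fold), Stc2 (38.4-fold), Bnip3 (30.8-fold), Ak4 (18.4-fold), Egln3 (14.3-fold), Higd1a (9.70-fold), Epas1 (7.12-fold), Gbe1 (6.34-fold), Fam162a (5.43-fold) and Hilpda (5.22-fold), and the other 12 rose by 1.23 to 5.12-fold. In WT cells at 10 ng/ml they were of Bnip3 (62.5-fold), Egln3 (42.1-fold), Nrn1 (37.5-fold), Ndrg1 (19.3-fold), Stc2 (17.6-fold), Ak4 (16.8-fold), Epas1 (13.9-fold), Gbe1 (12.6-fold), Plod2 (10.6-fold) and Fam162a (10.5-fold), with the other 17 between 1.63 and 8.13-fold higher. Nrn1, Ak4 and Plod2 were below the guide at day 0 in both genotypes and Bnip3 in WT cells, so these folds may understate the change. After 2 days the rises in DKO cells were led by Stc2 (14.9-fold), Ak4 (9.38-fold), Higd1a (6.36-fold), Bnip3 (5.29-fold), Nrn1 (5.07-fold), Mif (4.00-fold), Egln3 (3.40-fold), Fam162a (2.81-fold), Plod2 (2.59-fold) and Epas1 (2.20-fold), with the other 3 (Hilpda, Hif1a and Egln1) between 1.35 and 1.96-fold. In WT cells at day 2 they were led by Ak4 (19.8-fold), Bnip3 (19.3-fold), Stc2 (15.9-fold), Nrn1 (14.5-fold), Egln3 (11.8-fold), Epas1 (6.48-fold), Higd1a (5.501-fold), Mif (5.38-fold), Plod2 (5.27-fold) and Fam162a (4.76-fold), with the other 11 between 1.43 and 2.96-fold. At 2.2 ng/ml the 10 members that rose in DKO cells were Stc2 (16.1-fold), Nrn1 (7.30-fold), Epas1 (4.09-fold), Higd1a (3.55-fold), Bnip3 (3.24-fold), Mif (2.89-fold), Plod2 (2.08-fold), Fam162a (1.91-fold), Hilpda (1.75-fold) and Hif1a (1.36-fold). In WT cells at 2.2 ng/ml the rises were led by Epas1 (39.6-fold), Stc2 (28.2-fold), Nrn1 (17.9-fold), Bnip3 (14.9-fold), Egln3 (12.6-fold), Ak4 (6.73-fold), Fam162a (4.53-fold), Mif (4.50-fold), Higd1a (4.30-fold) and Hif1a (3.30-fold), with the other 9 between 1.43 and 3.05-fold. The falls in DKO cells at day 2 were 1.71-fold for Ndrg1, 1.65-fold for Cited2, 1.54-fold for Narf and 1.51-fold for Arnt, and Ndrg1 was 1.63-fold lower at 2.2 ng/ml. Cited2, which competes with HIF for a coactivator, was 1.77-fold lower in WT cells at day 2 and 1.62-fold lower at 10 ng/ml.

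Several of these calls near the threshold depended on single arrays or on the scaling (adjusted p in brackets). In WT cells at day 2 the call of Mxi1 was lost without WT day 0 replicate 2 or 3 or without WT day 2 replicate 1 or 2 (0.0662 to 0.113), or after cyclic loess (0.0787), and that of Bnip3l after cyclic loess (0.101), or after a further quantile normalization (0.161). In WT cells at 2.2 ng/ml the call of Bnip3l was lost without WT day 0 replicate 3 or without WT 2.2 ng/ml replicate 1 (0.0654 to 0.0786), or after cyclic loess (0.268), or after a further quantile normalization (0.383), and that of Gbe1 without WT day 0 replicate 1 or 2 or without WT 2.2 ng/ml replicate 1 or 2 (0.0652 to 0.224), or after cyclic loess (0.055). Ddit4 in WT cells at 10 ng/ml was lost without WT day 0 replicate 1 or 2 or without WT 10 ng/ml replicate 1 or 3 (0.0783 to 0.101), and Adm without WT 10 ng/ml replicate 3 (0.0709). Egln1 in DKO cells at day 2 was lost without DKO day 0 replicate 1 or 3 or without DKO day 2 replicate 1, 2 or 3 (0.0599 to 0.157), or after cyclic loess (0.244), or after a further quantile normalization (0.0646), and the fall of Narf without DKO day 2 replicate 2 (0.0686). The rise of Hif1a in DKO cells was lost at 2.2 ng/ml after cyclic loess (0.0685). At 10 ng/ml the rise of Hif1a in DKO cells was lost without DKO day 0 replicate 1 or 2 or without DKO 10 ng/ml replicate 1 or 3 (0.0888 to 0.185), or after cyclic loess (0.426), or after a further quantile normalization (0.102), or with the replicate block (0.0561), or when only the compared groups were fitted (0.0972). Hilpda in DKO cells at 2.2 ng/ml was lost without DKO day 0 replicate 1 or 3 or without DKO 2.2 ng/ml replicate 2 or 3 (0.0593 to 0.207). Some calls were gained instead. Kdm3a in DKO cells at day 2 was called lower after cyclic loess (0.0105) and a further quantile normalization (0.0319). In WT cells at 2.2 ng/ml the same 2 scalings called Arnt (0.0201 and 0.0461) and Cited2 (0.0144 and 0.0339) lower. They called Vegfa higher there (0.0439 and 0.0205). The 2 probe sets of Higd1a disagreed: the brighter, used here, rose by 3.28 in DKO and 3.02 in WT cells on the log2 scale at 10 ng/ml over day 0, and the dimmer read 0.06 in DKO and 0.29 in WT cells. The dimmer read -0.18 in DKO and -0.16 in WT cells at day 2, and -0.29 in DKO and -0.62 in WT cells at 2.2 ng/ml, below day 0 where the brighter rose. For Bnip3 the brighter and the dimmer gave 4.94 and 3.59 in DKO cells and 5.97 and 4.19 in WT cells, and those of Ak4, Bnip3l and Mif ran the same way.

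**Figure D2:**
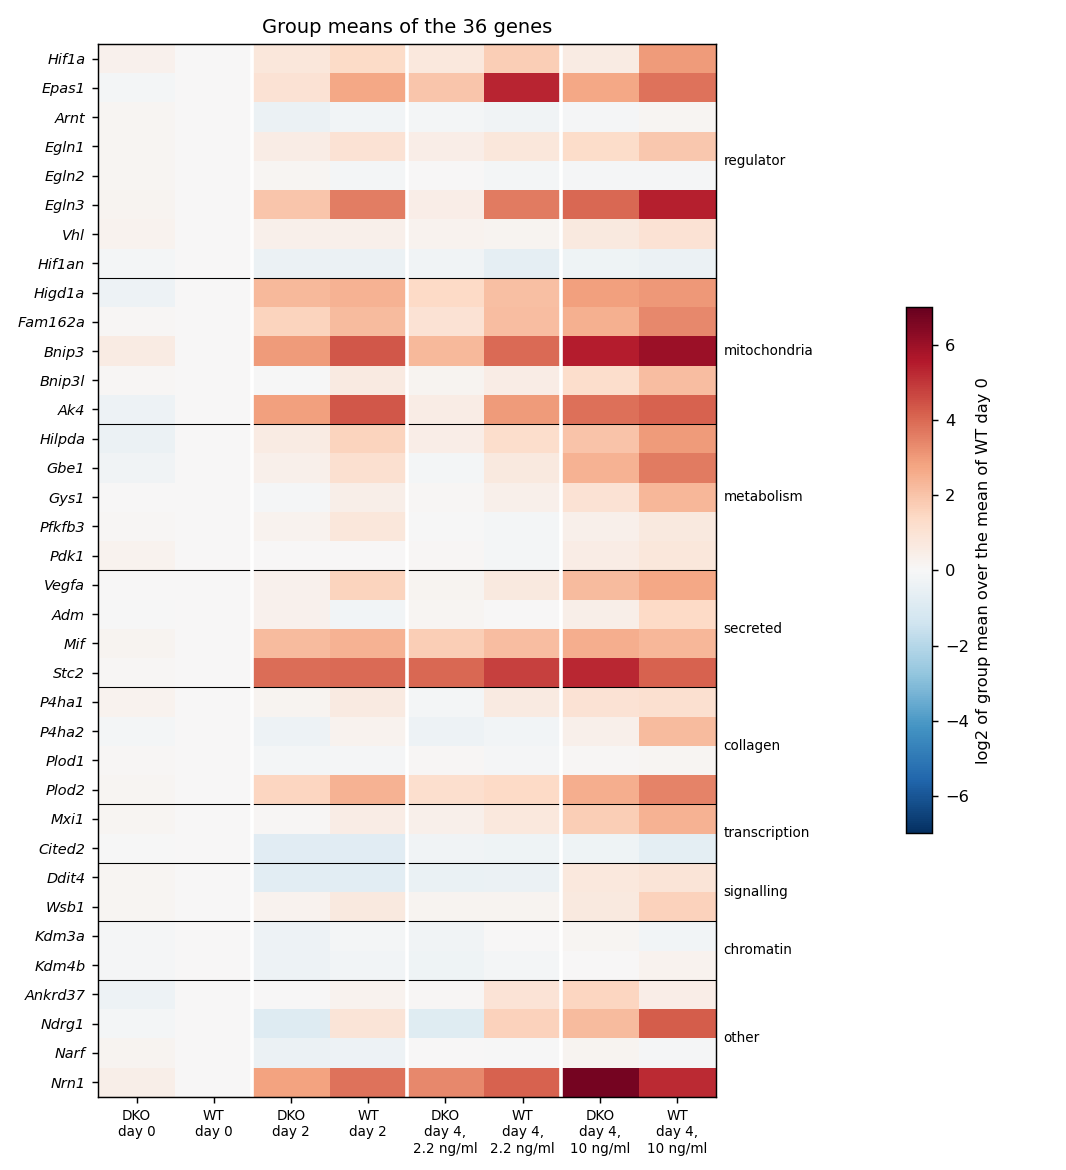
Group means of the 36 genes as log2 of the group mean over the WT day 0 mean (colour), with genes by role down the page and DKO left of WT in each state. Bnip3, Egln3, Nrn1 and Stc2 are strongly coloured at 10 ng/ml, Hif1a is paler in DKO (mean 339) than in WT (mean 1785) there, and Egln2, Plod1 and Kdm4b stay near white throughout.

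Because many members moved together, the letters upstream of their starts were read from RefSeq (GRCm38.p6), 250 bases before each annotated start, 5′ to 3′ along the gene. A window was matched by symbol for 30 of the 36 members, and those of Epas1, Plod2, Bnip3l, Kdm4b, Ndrg1 and Nrn1 were not analysed here. The letters searched on both strands were ACGTG and GCGTG, the core that HIF binds, and TGANTCA, bound by AP-1 factors including BATF with JUN partners; overlapping matches were counted apart. A HIF core was in at least 1 window of 25 of 30 members (83.3%), against 11226 of the 27025 genes with a window (41.5%). A gene with several windows can match more easily. Counted by window, the core was in 31 of 43 member windows (72.1%), against 12679 of all 32851 (38.6%). ACGTG alone was in 17 members (56.7%, against 18.5% of genes) and GCGTG in 21 (70%, against 30.9%). TGANTCA was in 2 members, Hilpda and Kdm3a (6.67%, against 7.82% of genes). Many members were listed for being HIF targets, and base composition was not matched, so these shares are a description. The 4 windows below were chosen for their members' patterns in the data: Bnip3 and Egln3 rose strongly and were lower in DKO cells, Ankrd37 was higher in DKO cells at 10 ng/ml, and Gbe1 rose strongly with 0 matches in this window. Capitals mark ACGTG and GCGTG, or CACGT and CACGC where the match is on the other strand.
Bnip3, chr7:138909507-138909756 (minus strand): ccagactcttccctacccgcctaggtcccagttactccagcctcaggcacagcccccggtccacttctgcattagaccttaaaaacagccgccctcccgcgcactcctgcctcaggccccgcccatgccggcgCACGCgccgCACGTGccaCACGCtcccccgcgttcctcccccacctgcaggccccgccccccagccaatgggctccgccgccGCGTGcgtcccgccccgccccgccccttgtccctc
Egln3, chr12:54203875-54204124 (minus strand): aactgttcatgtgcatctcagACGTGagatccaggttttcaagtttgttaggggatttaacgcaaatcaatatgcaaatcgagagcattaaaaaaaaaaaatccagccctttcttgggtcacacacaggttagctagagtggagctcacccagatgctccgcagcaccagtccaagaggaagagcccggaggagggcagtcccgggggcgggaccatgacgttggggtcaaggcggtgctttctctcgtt
Ankrd37, chr8:45999851-46000100 (minus strand): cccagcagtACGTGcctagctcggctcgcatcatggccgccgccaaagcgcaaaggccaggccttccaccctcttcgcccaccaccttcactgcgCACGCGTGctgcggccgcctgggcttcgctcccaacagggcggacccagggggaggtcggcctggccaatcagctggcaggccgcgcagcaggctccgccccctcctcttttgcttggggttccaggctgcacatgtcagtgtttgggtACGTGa
Gbe1, chr16:70313699-70313948 (plus strand): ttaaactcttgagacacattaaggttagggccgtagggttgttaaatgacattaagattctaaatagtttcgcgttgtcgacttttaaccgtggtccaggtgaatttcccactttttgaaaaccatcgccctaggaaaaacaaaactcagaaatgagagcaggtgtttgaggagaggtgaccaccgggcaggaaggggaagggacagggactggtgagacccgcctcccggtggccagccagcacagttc
Bnip3 holds 5 matches, 2 of them in the palindrome CACGTG, Ankrd37 holds 4, Egln3 holds 1, and none of the 4 windows holds TGANTCA.

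Hif1a, the main oxygen-sensitive subunit, rose with activation in both genotypes but followed the anti-CD3e concentration by the calls in WT cells alone, and the difference between the genotypes was itself called. Hif1a read 251, 274 and 301 in DKO cells and 246, 233 and 196 in WT cells at day 0. Hif1a at day 2 read 417, 389 and 382 in DKO cells and 569, 595 and 527 in WT cells. Hif1a at day 4 read 359, 398 and 361 in DKO cells and 662, 748 and 821 in WT cells at 2.2 ng/ml, and 346, 314 and 358 in DKO cells and 1759, 1799 and 1796 in WT cells at 10 ng/ml. All 3 DKO arrays were below all 3 WT arrays in each activated state, and the WT arrays at 10 ng/ml were the highest of all 24. Hif1a was 1.42-fold lower (CI 1.21 to 1.67, adjusted p = 0.0112) in DKO than in WT cells at day 2, 1.99-fold lower (CI 1.69 to 2.34, adjusted p = 2.28e-06) at 2.2 ng/ml and 5.27-fold lower (CI 4.48 to 6.19, adjusted p = 9.74e-14) at 10 ng/ml. At day 0 the DKO arrays were above the WT arrays, a log2 difference of 0.29 ± 0.11 (adjusted p = 0.583). The step to 10 over 2.2 ng/ml had a log2 change of -0.14 ± 0.11 (adjusted p = 0.624) in DKO cells, against 1.27 ± 0.11 (adjusted p = 1.09e-08) in WT cells. The difference between these 2 steps was -1.40 ± 0.16 (adjusted p = 2.19e-06), and the difference in day 2 over day 0 was -0.80 ± 0.16 (adjusted p = 0.0109). The day 2 genotype call was lost without DKO day 2 replicate 3 or without WT day 2 replicate 1 or 2 (0.0504 to 0.0702), or when only the compared groups were fitted (0.0522). The day 2 difference was lost when only the compared groups were fitted (0.0505).

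Epas1, the other alpha subunit, had its highest level at the lower concentration in WT cells and at the higher one in DKO cells. Epas1 read 34.5, 26.3 and 29.7 in DKO cells and 31.9, 40.6 and 25.3 in WT cells at day 0. Epas1 at day 2 read 61.9, 61.7 and 74.6 in DKO cells and 242, 223 and 166 in WT cells. Epas1 at day 4 read 151, 101 and 121 in DKO cells and 1365, 1693 and 883 in WT cells at 2.2 ng/ml, and 254, 175 and 219 in DKO cells and 488, 488 and 369.9 in WT cells at 10 ng/ml. DKO and WT arrays overlapped at day 0 and were apart in the 3 activated states, and the third WT array at 2.2 ng/ml was lower than the other two. Epas1 was 3.15-fold lower (CI 2.31 to 4.30, adjusted p = 3.78e-05) in DKO than in WT cells at day 2, 10.3-fold lower (CI 7.58 to 14.1, adjusted p = 1.60e-10) at 2.2 ng/ml and 2.09-fold lower (CI 1.53 to 2.84, adjusted p = 0.00112) at 10 ng/ml. At 10 over 2.2 ng/ml it was 1.74-fold higher (CI 1.27 to 2.37, adjusted p = 0.0203) in DKO cells and 2.85-fold lower (CI 2.09 to 3.89, adjusted p = 1.57e-05) in WT cells. The difference between the genotypes in that step was 2.31 ± 0.31 (adjusted p = 1.66e-05) on the log2 scale, and in day 2 over day 0 -1.56 ± 0.31 (adjusted p = 0.00937). The dose call in DKO cells was lost without DKO 10 ng/ml replicate 1 or 3 or without DKO 2.2 ng/ml replicate 2 or 3 (0.0564 to 0.12). Arnt is the partner of both. Arnt read 212, 206 and 188 in DKO cells and 179, 169.9 and 194 in WT cells at day 0. Arnt at day 2 read 148, 112 and 144 in DKO cells and 166, 151 and 163 in WT cells. Arnt at day 4 read 169, 172 and 156 in DKO cells and 158, 169.9 and 126 in WT cells at 2.2 ng/ml, and 172, 173 and 166 in DKO cells and 210.3, 206 and 182 in WT cells at 10 ng/ml. Every group mean of Arnt lay between 135 and 202. Arnt was 1.33-fold higher (CI 1.11 to 1.58, adjusted p = 0.0237) at 10 than at 2.2 ng/ml in WT cells, a call lost without WT 10 ng/ml replicate 1 or 2 or without WT 2.2 ng/ml replicate 3 (0.0764 to 0.177), or without WT day 2 replicate 3 and WT 2.2 ng/ml replicate 3 together (0.198), or when only the compared groups were fitted (0.117).

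Among the hydroxylases, Egln3 moved most. Egln3 read 31.8, 50.2 and 44.8 in DKO cells and 37.2, 37.8 and 37.1 in WT cells at day 0. Egln3 at day 2 read 121, 146 and 159 in DKO cells and 549, 502 and 312 in WT cells. Egln3 at day 4 read 46.8, 43.3 and 62.1 in DKO cells and 522, 428 and 467 in WT cells at 2.2 ng/ml, and 511, 498 and 824 in DKO cells and 1648, 1219 and 1938 in WT cells at 10 ng/ml. DKO and WT arrays overlapped at day 0 and were apart in each activated state, and in DKO cells the 2.2 ng/ml arrays overlapped those of day 0. Egln3 was 3.13-fold lower (CI 2.28 to 4.28, adjusted p = 5.07e-05) in DKO than in WT cells at day 2, 9.40-fold lower (CI 6.86 to 12.9, adjusted p = 4.98e-10) at 2.2 ng/ml and 2.65-fold lower (CI 1.93 to 3.63, adjusted p = 5.23e-05) at 10 ng/ml. The step to 10 over 2.2 ng/ml was 11.9-fold in DKO cells and 3.34-fold in WT cells, a log2 difference of 1.83 ± 0.31 (adjusted p = 0.000376), and day 2 over day 0 differed by -1.80 ± 0.31 (adjusted p = 0.00319). Egln1 read 236, 269.6 and 212 in DKO cells and 250.4, 235 and 179 in WT cells at day 0. Egln1 at day 2 read 326, 309 and 328 in DKO cells and 458, 477 and 395 in WT cells. Egln1 at day 4 read 311, 289 and 311 in DKO cells and 347, 360.3 and 436 in WT cells at 2.2 ng/ml, and 444, 558 and 593 in DKO cells and 856, 631 and 949 in WT cells at 10 ng/ml. Egln1 was apart between the genotypes in all 3 activated states, with DKO arrays the lower, but was called at 10 ng/ml alone, where it was 1.52-fold lower (CI 1.22 to 1.89, adjusted p = 0.009). It rose at 10 over 2.2 ng/ml by 1.74-fold in DKO cells (adjusted p = 0.00121) and 2.11-fold in WT cells (adjusted p = 1.58e-05). The genotype call of Egln1 was lost without DKO 10 ng/ml replicate 1 or without WT 10 ng/ml replicate 3 (0.0675 to 0.0794).

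Of the remaining regulators, Vhl was called in 2 contrasts and Egln2 and Hif1an in none. Egln2 read 112, 111 and 81.0 in DKO cells and 106, 93.6 and 81.3 in WT cells at day 0. Egln2 at day 2 read 96.1, 109 and 108 in DKO cells and 78.3, 82.9 and 89.9 in WT cells. Egln2 at day 4 read 107, 88.7 and 87.8 in DKO cells and 86.6, 97.8 and 74.4 in WT cells at 2.2 ng/ml, and 94.3, 92.9 and 79.7 in DKO cells and 86.1, 82.5 and 92.0 in WT cells at 10 ng/ml. The DKO arrays of Egln2 were above the WT arrays at day 2, a log2 difference of 0.32 ± 0.14 (adjusted p = 0.248), and the groups overlapped in the other states. Vhl read 129, 114 and 109 in DKO cells and 124, 100.4 and 73.5 in WT cells at day 0. Vhl at day 2 read 146, 98.6 and 132 in DKO cells and 123, 143 and 112 in WT cells. Vhl at day 4 read 123, 115 and 111 in DKO cells and 97.0, 121 and 128 in WT cells at 2.2 ng/ml, and 168, 141 and 163 in DKO cells and 246, 144 and 217 in WT cells at 10 ng/ml. Genotypes overlapped in all 4 states, and Vhl was 1.72-fold higher (CI 1.31 to 2.26, adjusted p = 0.0047) at 10 than at 2.2 ng/ml in WT cells, against a log2 change of 0.43 ± 0.19 (adjusted p = 0.205) in DKO cells, called when only the compared groups were fitted (0.0465). Hif1an read 46.3, 52.5 and 74.9 in DKO cells and 66.8, 61.3 and 64.4 in WT cells at day 0. Hif1an at day 2 read 55.8, 59.7 and 28.2 in DKO cells and 45.2, 42.2 and 59.3 in WT cells. Hif1an at day 4 read 47.8, 70.8 and 45.4 in DKO cells and 35.2, 38.9 and 51.4 in WT cells at 2.2 ng/ml, and 47.6, 41.6 and 67.8 in DKO cells and 59.1, 49.6 and 34.5 in WT cells at 10 ng/ml. Arrays of Hif1an overlapped between the genotypes in every state and between the concentrations in both genotypes. Its WT arrays were below those of day 0 in all activated states, and the log2 change at 2.2 ng/ml was -0.64 ± 0.26 (adjusted p = 0.0685), called without WT 2.2 ng/ml replicate 3 (-0.79, 0.0463), or with dim genes filtered out (0.0485), or without WT day 2 replicate 3 and WT 2.2 ng/ml replicate 3 together (0.0463), or when only the compared groups were fitted (0.0165).

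**Figure D3:**
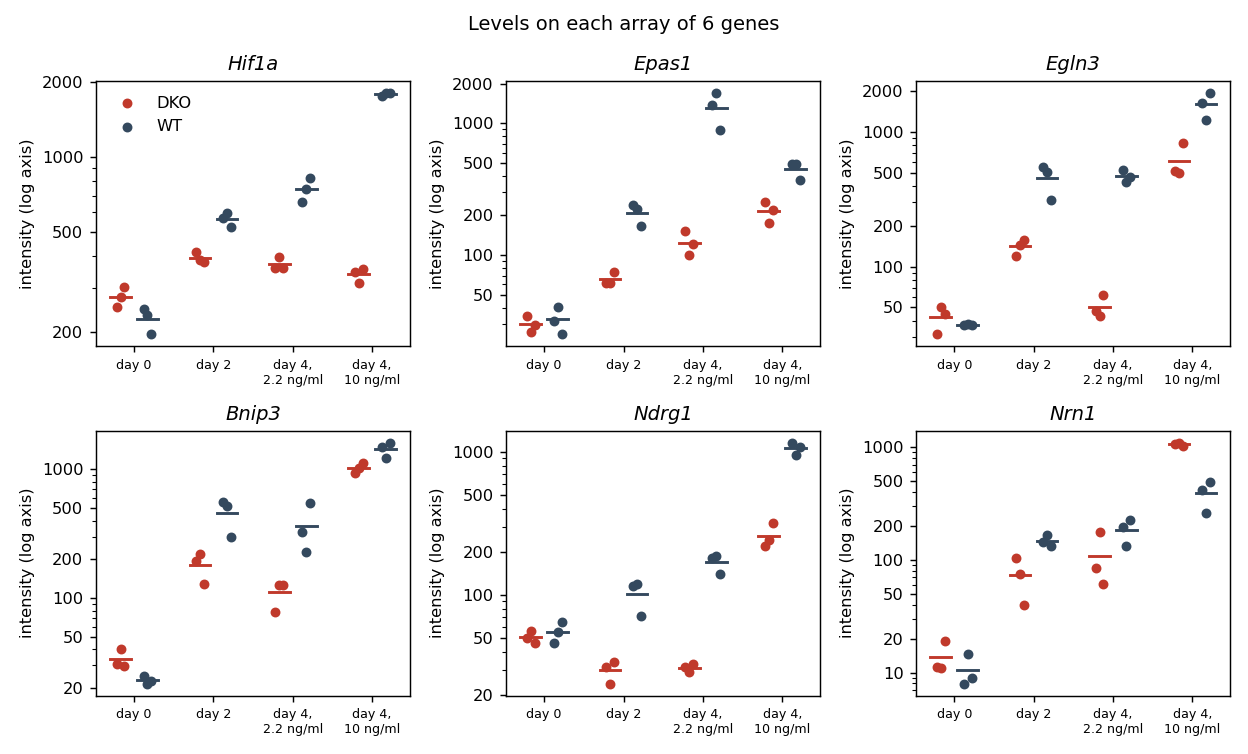
Intensity on each array (log axes, 1 panel a gene) of Hif1a, Epas1, Egln3, Bnip3, Ndrg1 and Nrn1, by state on the x axis with DKO left of WT; bars are means of 3. Hif1a stays between 314 and 417 on activated DKO arrays, Epas1 peaks at 2.2 ng/ml in WT, Egln3 and Ndrg1 at 2.2 ng/ml in DKO lie near or below their day 0 levels, and Nrn1 is highest in DKO at 10 ng/ml.

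The targets at mitochondria rose with the anti-CD3e concentration in both genotypes. Bnip3 and Bnip3l are receptors that tag mitochondria for removal by autophagy. Bnip3 read 30.8, 40.5 and 29.7 in DKO cells and 24.7, 21.6 and 22.8 in WT cells at day 0. Bnip3 at day 2 read 193, 219 and 129.7 in DKO cells and 559, 524 and 299 in WT cells. Bnip3 at day 4 read 77.5, 127 and 127 in DKO cells and 326, 227 and 546 in WT cells at 2.2 ng/ml, and 936, 1033 and 1116 in DKO cells and 1489, 1236 and 1612 in WT cells at 10 ng/ml. DKO arrays of Bnip3 were above WT arrays at day 0 and below them in the 3 activated states. Bnip3 was 2.52-fold lower (CI 1.73 to 3.68, adjusted p = 0.0043) in DKO than in WT cells at day 2 and 3.18-fold lower (CI 2.18 to 4.64, adjusted p = 0.000202) at 2.2 ng/ml, and at 10 ng/ml the log2 difference was -0.49 ± 0.26 (adjusted p = 0.303), called when only the compared groups were fitted (0.0434). At 10 over 2.2 ng/ml it was 9.51-fold higher in DKO and 4.19-fold higher in WT cells, a log2 difference of 1.18 ± 0.37 (adjusted p = 0.0567), which was called without WT 2.2 ng/ml replicate 2 (1.48, 0.00962), or with dim genes filtered out (0.0407), or after a further quantile normalization (0.0393). The dimmer probe set of Bnip3 gave a smaller log2 difference, 0.69 (2.88 in DKO and 2.20 in WT cells). The rise of Bnip3 at day 2 differed between the genotypes by -1.87 ± 0.37 (adjusted p = 0.0109) on the log2 scale, a call lost with its probe sets averaged (0.0638). Bnip3l read 718, 673 and 741 in DKO cells and 716, 727 and 588 in WT cells at day 0. Bnip3l at day 2 read 742, 760.3 and 491 in DKO cells and 1266, 1048 and 857 in WT cells. Bnip3l at day 4 read 713, 809 and 805 in DKO cells and 1067, 883 and 943 in WT cells at 2.2 ng/ml, and 1558, 1687 and 1593 in DKO cells and 3201, 2725 and 3026 in WT cells at 10 ng/ml. Bnip3l was 1.601-fold lower (CI 1.29 to 1.99, adjusted p = 0.0129) in DKO than in WT cells at day 2 and 1.85-fold lower (CI 1.48 to 2.30, adjusted p = 0.000173) at 10 ng/ml, the arrays being apart in all 3 activated states. Its day 2 call was lost without DKO day 2 replicate 3 or without WT day 2 replicate 1 or 2 (0.0531 to 0.115), or when only the compared groups were fitted (0.117). The step to 10 over 2.2 ng/ml was 2.08-fold in DKO and 3.10-fold in WT cells.

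Fam162a, a mitochondrial protein tied to cell death in low oxygen, was lower in DKO cells in all 3 activated states. Fam162a read 158, 152 and 117 in DKO cells and 117, 172 and 119 in WT cells at day 0. Fam162a at day 2 read 382, 379.9 and 427 in DKO cells and 706, 678 and 539 in WT cells. Fam162a at day 4 read 234, 278 and 301 in DKO cells and 571, 539 and 722 in WT cells at 2.2 ng/ml, and 742, 712 and 852 in DKO cells and 1481, 1269.9 and 1488 in WT cells at 10 ng/ml. The genotypes overlapped at day 0 and were apart afterwards. Fam162a was 1.61-fold lower (CI 1.28 to 2.02, adjusted p = 0.0175) in DKO than in WT cells at day 2, 2.25-fold lower (CI 1.79 to 2.83, adjusted p = 3.12e-05) at 2.2 ng/ml and 1.84-fold lower (CI 1.46 to 2.31, adjusted p = 0.000335) at 10 ng/ml. The day 2 call was lost without DKO day 2 replicate 1 or 2 or without WT day 2 replicate 1 or 2 (0.0503 to 0.101). Ak4 read 9.95, 13.8 and 10.7 in DKO cells and 16.3, 15.7 and 12.5 in WT cells at day 0. Ak4 at day 2 read 77.5, 127 and 123 in DKO cells and 354, 385 and 183 in WT cells. Ak4 at day 4 read 18.1, 29.2 and 17.2 in DKO cells and 100.5, 48.3 and 200.3 in WT cells at 2.2 ng/ml, and 136, 243 and 276 in DKO cells and 215, 185 and 383 in WT cells at 10 ng/ml. Ak4, a mitochondrial adenylate kinase, varied widely within groups, from 48.3 to 200.3 in WT cells at 2.2 ng/ml, and its genotypes were apart at day 2 and 2.2 ng/ml. It was 2.74-fold lower (CI 1.59 to 4.73, adjusted p = 0.0379) in DKO than in WT cells at day 2 and 4.74-fold lower (CI 2.75 to 8.196, adjusted p = 0.000478) at 2.2 ng/ml. The day 2 call of Ak4 was lost without DKO day 2 replicate 1, 2 or 3 or without WT day 2 replicate 1 or 2 (0.0609 to 0.175), or after a further quantile normalization (0.081), or with a variance trend and robust moderation (0.068). Its step to 10 over 2.2 ng/ml was 10.0-fold higher (CI 5.79 to 17.3, adjusted p = 1.70e-06) in DKO and 2.50-fold higher (CI 1.45 to 4.32, adjusted p = 0.018) in WT cells, where the arrays of the 2 concentrations overlapped. Ak4 averaged 21.5 in DKO cells at 2.2 ng/ml, below the guide. The DKO step and the genotype fold at 2.2 ng/ml may therefore be too small. The WT step was lost without WT 10 ng/ml replicate 3 or without WT 2.2 ng/ml replicate 2 (0.116 to 0.166), or when only the compared groups were fitted (0.101). The difference between the steps, 2.00 ± 0.54 (adjusted p = 0.0226), was lost without DKO 10 ng/ml replicate 2 or 3 or without DKO 2.2 ng/ml replicate 1 or 3 or without WT 10 ng/ml replicate 1 or 2 or without WT 2.2 ng/ml replicate 3 (0.0582 to 0.0794), or without WT day 2 replicate 3 and WT 2.2 ng/ml replicate 3 together (0.0549), or when only the compared groups were fitted (0.0618). The dimmer probe set of Ak4 gave a smaller log2 difference, 1.24 (2.21 in DKO and 0.97 in WT cells). Higd1a read 110.0, 217 and 182 in DKO cells and 176, 282 and 198 in WT cells at day 0. Higd1a at day 2 read 811, 1139 and 1210.4 in DKO cells and 1356, 1117 and 1079.7 in WT cells. Higd1a at day 4 read 523, 630.2 and 589 in DKO cells and 964, 709 and 1146 in WT cells at 2.2 ng/ml, and 1372, 1396 and 2072 in DKO cells and 1770.3, 1354 and 2201 in WT cells at 10 ng/ml. Higd1a, which sits in the inner mitochondrial membrane, was apart between the genotypes at 2.2 ng/ml alone, with a log2 difference of -0.67 ± 0.24 (adjusted p = 0.155). It rose by 2.73-fold in DKO and 1.89-fold in WT cells at 10 over 2.2 ng/ml, and the WT call was lost without WT 10 ng/ml replicate 3 or without WT 2.2 ng/ml replicate 2 (0.0602 to 0.0649). On the log2 scale the brighter probe set, used here, gave 1.45 in DKO and 0.92 in WT cells for this step, and the dimmer 0.36 in DKO and 0.92 in WT cells, so the order of the genotypes turned. In DKO over WT at 2.2 ng/ml the dimmer gave 0.19.

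In glycogen and lipid metabolism, Gbe1 and Gys1 rose at 10 ng/ml and were lower there in DKO than in WT cells. Gbe1 branches glycogen. Gbe1 read 45.1, 41.3 and 44.4 in DKO cells and 52.8, 35.5 and 69.0 in WT cells at day 0. Gbe1 at day 2 read 77.8, 87.6 and 36 in DKO cells and 139.9, 114 and 88.1 in WT cells. Gbe1 at day 4 read 51.6, 39.0 and 53.6 in DKO cells and 85.4, 93.7 and 71.8 in WT cells at 2.2 ng/ml, and 226, 282 and 332 in DKO cells and 708, 543 and 672 in WT cells at 10 ng/ml. DKO arrays of Gbe1 were below WT arrays in each activated state. It was 2.30-fold lower (CI 1.59 to 3.34, adjusted p = 0.00185) in DKO cells at 10 ng/ml, and the log2 difference was -0.84 ± 0.26 (adjusted p = 0.0841) at day 2 and -0.80 ± 0.26 (adjusted p = 0.0948) at 2.2 ng/ml. The day 2 difference was called without DKO day 2 replicate 2 (-1.08, 0.0383), and that at 2.2 ng/ml when only the compared groups were fitted (0.0287). The step to 10 over 2.2 ng/ml was 5.801-fold in DKO and 7.66-fold in WT cells. Gys1 read 39.7, 41.2 and 49.3 in DKO cells and 33.6, 42.3 and 52.5 in WT cells at day 0. Gys1 at day 2 read 40.5, 42.5 and 40.7 in DKO cells and 62.3, 56.6 and 49.2 in WT cells. Gys1 at day 4 read 51.2, 39.6 and 43.5 in DKO cells and 54.0, 56.4 and 55.6 in WT cells at 2.2 ng/ml, and 85.0, 94.0 and 81.3 in DKO cells and 251, 148 and 252 in WT cells at 10 ng/ml. Gys1, glycogen synthase, was 2.43-fold lower (CI 1.90 to 3.12, adjusted p = 6.95e-06) in DKO than in WT cells at 10 ng/ml. Its step was 1.947-fold in DKO and 3.81-fold in WT cells, a log2 difference of -0.97 ± 0.25 (adjusted p = 0.0149), which was lost without DKO 2.2 ng/ml replicate 1 or without WT 10 ng/ml replicate 1 (0.0535 to 0.0562). Hilpda read 44.5, 51.9 and 41.6 in DKO cells and 58.0, 64.9 and 59.5 in WT cells at day 0. Hilpda at day 2 read 97.3, 89.3 and 83.8 in DKO cells and 144, 202 and 200.2 in WT cells. Hilpda at day 4 read 59.5, 77.1 and 112 in DKO cells and 128, 116 and 178 in WT cells at 2.2 ng/ml, and 226, 239.9 and 251 in DKO cells and 444, 251 and 757 in WT cells at 10 ng/ml. Hilpda, a lipid droplet protein that holds back fat breakdown, was apart between the genotypes at day 0, day 2 and 2.2 ng/ml and overlapped at 10 ng/ml. It was 2.00-fold lower (CI 1.38 to 2.91, adjusted p = 0.0364) in DKO cells at day 2 and 1.84-fold lower (CI 1.26 to 2.67, adjusted p = 0.0257) at 10 ng/ml. The day 2 call was lost without DKO day 2 replicate 1, 2 or 3 or without WT day 2 replicate 2 or 3 (0.0553 to 0.147), or after cyclic loess (0.0501), or after a further quantile normalization (0.0631), or without WT day 2 replicate 3 and WT 2.2 ng/ml replicate 3 together (0.114). The 10 ng/ml call was lost without DKO 10 ng/ml replicate 1, 2 or 3 or without WT 10 ng/ml replicate 1 or 3 (0.0521 to 0.231), or when only the compared groups were fitted (0.0997). The 2.2 ng/ml difference was -0.79 on the log2 scale (adjusted p = 0.111), called without DKO 2.2 ng/ml replicate 3 (-1.03, 0.0392). At 10 over 2.2 ng/ml Hilpda rose by 2.98-fold in DKO and 3.17-fold in WT cells.

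Pfkfb3 and Pdk1 steer sugar into glycolysis and away from the mitochondria. Pfkfb3 read 105, 123 and 120.3 in DKO cells and 107, 92.1 and 126 in WT cells at day 0. Pfkfb3 at day 2 read 120.4, 151 and 116 in DKO cells and 194, 196 and 170.4 in WT cells. Pfkfb3 at day 4 read 95.4, 117 and 102 in DKO cells and 94.1, 84.1 and 120.0 in WT cells at 2.2 ng/ml, and 105, 157 and 156 in DKO cells and 185, 144 and 204 in WT cells at 10 ng/ml. Pfkfb3 was apart between the genotypes at day 2 alone, with a log2 difference of -0.54 ± 0.17 (adjusted p = 0.0965), and it rose at 10 over 2.2 ng/ml in WT cells, where it was 1.79-fold higher (CI 1.40 to 2.28, adjusted p = 0.000924), against a log2 change of 0.39 ± 0.17 (adjusted p = 0.197) in DKO cells. Pdk1 read 207, 208 and 193 in DKO cells and 179.9, 176 and 167 in WT cells at day 0. Pdk1 at day 2 read 172, 196 and 168 in DKO cells and 179, 195 and 164 in WT cells. Pdk1 at day 4 read 192, 198 and 164 in DKO cells and 179.8, 147 and 155 in WT cells at 2.2 ng/ml, and 221, 250.3 and 282 in DKO cells and 329, 217 and 365 in WT cells at 10 ng/ml. Pdk1 overlapped between the genotypes in every activated state and was 1.85-fold higher (CI 1.496 to 2.30, adjusted p = 0.000116) at the higher concentration in WT cells, against a log2 change of 0.44 ± 0.15 (adjusted p = 0.0757) in DKO cells. The difference of the steps between the genotypes was -0.45 ± 0.24 (adjusted p = 0.368) for Pfkfb3 and -0.45 ± 0.21 (adjusted p = 0.263) for Pdk1, neither called. The Pdk1 difference was called without WT 10 ng/ml replicate 2 (-0.68, 0.0234). That array is the lowest of its group for Pdk1. The step of Pfkfb3 in DKO cells was called without DKO 10 ng/ml replicate 1 (0.58, 0.0424).

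Of the secreted members, Stc2 rose with the concentration in DKO cells and fell with it in WT cells. Stc2 encodes stanniocalcin, a glycoprotein made under cell stress. Stc2 read 47.9, 37.9 and 63.2 in DKO cells and 40.3, 61.3 and 41.0 in WT cells at day 0. Stc2 at day 2 read 748, 709.9 and 711 in DKO cells and 767, 713 and 739.9 in WT cells. Stc2 at day 4 read 723, 811 and 814 in DKO cells and 1423, 1231 and 1295 in WT cells at 2.2 ng/ml, and 1923, 1853 and 1819.9 in DKO cells and 929.8, 709 and 839 in WT cells at 10 ng/ml. The genotypes overlapped at day 0 and day 2, DKO arrays were the lower at 2.2 ng/ml and the higher at 10 ng/ml. Stc2 was 1.68-fold lower (CI 1.34 to 2.11, adjusted p = 0.0051) in DKO than in WT cells at 2.2 ng/ml and 2.27-fold higher (CI 1.81 to 2.85, adjusted p = 5.90e-06) at 10 ng/ml. At 10 over 2.2 ng/ml it was 2.39-fold higher (CI 1.90 to 2.99, adjusted p = 6.97e-06) in DKO cells and 1.601-fold lower (CI 1.28 to 2.01, adjusted p = 0.00351) in WT cells, a log2 difference of 1.93 ± 0.22 (adjusted p = 2.79e-06). Vegfa read 34.5, 41.6 and 27.4 in DKO cells and 36.7, 29.0 and 36.9 in WT cells at day 0. Vegfa at day 2 read 38.7, 37.1 and 50.1 in DKO cells and 126, 105 and 68.9 in WT cells. Vegfa at day 4 read 46.4, 31.7 and 38.9 in DKO cells and 56.3, 49.3 and 60.9 in WT cells at 2.2 ng/ml, and 114, 165 and 189.6 in DKO cells and 215, 120.3 and 331 in WT cells at 10 ng/ml. Vegfa, the main vessel growth factor, was apart between the genotypes at day 2 and 2.2 ng/ml, where DKO arrays were lower, and overlapped at 10 ng/ml. It was 2.33-fold lower (CI 1.58 to 3.43, adjusted p = 0.0111) in DKO cells at day 2, a call lost without DKO day 2 replicate 2 or without WT day 2 replicate 1 or 2 (0.0562 to 0.0875). Its step to 10 over 2.2 ng/ml was 3.97-fold in DKO and 3.70-fold in WT cells. Mif read 1130.4, 1164 and 1187 in DKO cells and 1120.1, 1134 and 799 in WT cells at day 0. Mif at day 2 read 4643, 4491 and 4796 in DKO cells and 5385, 5482 and 5364 in WT cells. Mif at day 4 read 2807, 3364 and 3999 in DKO cells and 4615, 3841 and 5216 in WT cells at 2.2 ng/ml, and 5686, 6079 and 5904 in DKO cells and 5243, 5036 and 5281 in WT cells at 10 ng/ml. Mif, a cytokine and the brightest member, was below in DKO cells at day 2 and above at 10 ng/ml, with log2 differences of -0.22 ± 0.14 (adjusted p = 0.442) and 0.18 ± 0.14 (adjusted p = 0.516). At 2.2 ng/ml, where the arrays overlapped, the log2 difference of Mif was -0.43 (adjusted p = 0.0889). That difference was called without WT 2.2 ng/ml replicate 2 (-0.55, 0.0316), or without DKO 2.2 ng/ml replicate 3 (-0.56, 0.0328), or with a variance trend and robust moderation (0.0358). Mif rose at 10 over 2.2 ng/ml in DKO cells, where it was 1.75-fold higher (CI 1.44 to 2.13, adjusted p = 0.000248), against a log2 change of 0.20 ± 0.14 (adjusted p = 0.426) in WT cells. Adm read 9.71, 11.7 and 13.7 in DKO cells and 12.8, 10.0 and 13.3 in WT cells at day 0. Adm at day 2 read 10.0, 21.5 and 12.2 in DKO cells and 10.2, 10.7 and 10.97 in WT cells. Adm at day 4 read 13.5, 11.8 and 13.7 in DKO cells and 13.9, 9.31 and 13.6 in WT cells at 2.2 ng/ml, and 14.5, 15.7 and 16.9 in DKO cells and 19.3, 16.0 and 59.0 in WT cells at 10 ng/ml. Adm, a peptide that widens vessels, was below the guide on all arrays but the third WT array at 10 ng/ml. Its step in WT cells, 2.18-fold higher (CI 1.39 to 3.42, adjusted p = 0.0144), was lost without WT 10 ng/ml replicate 3 or without WT 2.2 ng/ml replicate 2 (0.0783 to 0.137), or when only the compared groups were fitted (0.13).

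The collagen enzymes hydroxylate proline (P4ha1, P4ha2) or lysine (Plod1, Plod2) in new collagen chains. P4ha2 read 20.9, 22.1 and 25 in DKO cells and 26.4, 26.2 and 21.5 in WT cells at day 0. P4ha2 at day 2 read 16.2, 23.1 and 18.3 in DKO cells and 28.5, 35.0 and 23.4 in WT cells. P4ha2 at day 4 read 18.7, 20.1 and 20.04 in DKO cells and 19.2, 22.7 and 24.2 in WT cells at 2.2 ng/ml, and 29.2, 36.4 and 29.7 in DKO cells and 177, 68.2 and 105 in WT cells at 10 ng/ml. DKO arrays of P4ha2 at 10 ng/ml reached 36.4 at most, below all 3 WT arrays, and both genotypes were near the guide in the other states. P4ha2 was 3.42-fold lower (CI 2.49 to 4.69, adjusted p = 2.06e-06) in DKO than in WT cells at 10 ng/ml. It was 4.93-fold higher (CI 3.60 to 6.77, adjusted p = 3.81e-08) at 10 than at 2.2 ng/ml in WT cells, against a log2 change of 0.69 ± 0.22 (adjusted p = 0.0561) in DKO cells, and the difference was -1.62 ± 0.31 (adjusted p = 0.00145). The DKO step was called when only the compared groups were fitted (0.00581), and P4ha2 was below the guide at 2.2 ng/ml in both genotypes. P4ha1 read 104, 123 and 144 in DKO cells and 85.6, 104 and 119 in WT cells at day 0. P4ha1 at day 2 read 117, 119 and 114 in DKO cells and 164, 146 and 169 in WT cells. P4ha1 at day 4 read 99.7, 83.7 and 102 in DKO cells and 150.2, 168 and 161 in WT cells at 2.2 ng/ml, and 202, 198 and 217 in DKO cells and 265, 183 and 233 in WT cells at 10 ng/ml. P4ha1 was apart between the genotypes at day 2 and 2.2 ng/ml and was 1.68-fold lower (CI 1.37 to 2.07, adjusted p = 0.00167) in DKO cells at 2.2 ng/ml. Its step was 2.17-fold higher (CI 1.77 to 2.66, adjusted p = 7.63e-06) in DKO and 1.41-fold higher (CI 1.15 to 1.73, adjusted p = 0.0181) in WT cells, the WT call being lost without WT 10 ng/ml replicate 1 or 3 or without WT 2.2 ng/ml replicate 1 (0.0573 to 0.137), or without WT day 2 replicate 3 and WT 2.2 ng/ml replicate 3 together (0.0504), or when only the compared groups were fitted (0.0761). Plod2 read 11.4, 11.1 and 15.2 in DKO cells and 10.1, 12.2 and 11.8 in WT cells at day 0. Plod2 at day 2 read 30.5, 33.3 and 32.7 in DKO cells and 78.9, 65.1 and 41.6 in WT cells. Plod2 at day 4 read 21.0, 29.5 and 27.7 in DKO cells and 31.6, 24.6 and 32.8 in WT cells at 2.2 ng/ml, and 42.9, 79.2 and 75.9 in DKO cells and 112, 87.2 and 179 in WT cells at 10 ng/ml. DKO arrays of Plod2 were below WT arrays at day 2 and 10 ng/ml and overlapped them at 2.2 ng/ml. The day 2 difference was -0.89 ± 0.25 (adjusted p = 0.0513), called without WT day 2 replicate 3 (-1.16, 0.0146), or with dim genes filtered out (0.0356), or after cyclic loess (0.0473), or without WT day 2 replicate 3 and WT 2.2 ng/ml replicate 3 together (0.0143). Plod2 was 1.89-fold lower (CI 1.33 to 2.70, adjusted p = 0.0127) in DKO cells at 10 ng/ml, a call lost without DKO 10 ng/ml replicate 1 or without WT 10 ng/ml replicate 3 (0.112 to 0.128), or when only the compared groups were fitted (0.0597). It rose at 10 over 2.2 ng/ml by 2.47-fold in DKO and 4.09-fold in WT cells. Plod2 averaged 26.1 in DKO and 29.7 in WT cells at 2.2 ng/ml, near the guide, so both steps may be too small. Plod1 had group means between 33.4 and 40.1 and was called in no contrast.

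Among members that act on transcription, signalling and chromatin, Mxi1 and Wsb1 were lower in DKO cells at 10 ng/ml. Mxi1 opposes Myc by binding its partner Max. Mxi1 read 88.5, 62.4 and 55.5 in DKO cells and 69.5, 62.7 and 58.4 in WT cells at day 0. Mxi1 at day 2 read 59.4, 88.3 and 51.8 in DKO cells and 100.2, 98.1 and 75.8 in WT cells. Mxi1 at day 4 read 68.6, 81.9 and 92.7 in DKO cells and 123, 111 and 87.3 in WT cells at 2.2 ng/ml, and 193, 207 and 222 in DKO cells and 368, 296 and 365 in WT cells at 10 ng/ml. The genotypes of Mxi1 overlapped except at 10 ng/ml, where it was 1.65-fold lower (CI 1.26 to 2.16, adjusted p = 0.0104) in DKO cells, a call lost without WT 10 ng/ml replicate 1 (0.0506). Its step to 10 over 2.2 ng/ml was 2.57-fold in DKO and 3.22-fold in WT cells. Wsb1 read 179, 163 and 136 in DKO cells and 139.6, 142 and 161 in WT cells at day 0. Wsb1 at day 2 read 174, 189 and 157 in DKO cells and 256, 222 and 225 in WT cells. Wsb1 at day 4 read 156, 164 and 178 in DKO cells and 177, 145 and 187 in WT cells at 2.2 ng/ml, and 256, 243 and 199 in DKO cells and 495, 466 and 405 in WT cells at 10 ng/ml. Wsb1, part of a ubiquitin ligase, was apart between the genotypes at day 2 and 10 ng/ml, and was 1.96-fold lower (CI 1.62 to 2.37, adjusted p = 8.68e-06) in DKO cells at 10 ng/ml. The step was 1.40-fold higher (CI 1.15 to 1.69, adjusted p = 0.023) in DKO and 2.69-fold higher (CI 2.22 to 3.26, adjusted p = 2.59e-08) in WT cells, a log2 difference of -0.94 ± 0.19 (adjusted p = 0.00202). The DKO step was lost without DKO 10 ng/ml replicate 1 or 2 or without DKO 2.2 ng/ml replicate 1 or 2 (0.0701 to 0.116). Ddit4 read 97.7, 97.5 and 255 in DKO cells and 103, 102 and 206 in WT cells at day 0. Ddit4 at day 2 read 67.0, 63.8 and 118 in DKO cells and 84.8, 101 and 57.5 in WT cells. Ddit4 at day 4 read 110.4, 103 and 79.3 in DKO cells and 106, 104 and 99.1 in WT cells at 2.2 ng/ml, and 177, 183 and 324 in DKO cells and 282, 200.5 and 284 in WT cells at 10 ng/ml. Ddit4, an inhibitor of mTOR signalling, overlapped between the genotypes in all 4 states. The third array stood above the other 2 in both genotypes at day 0, and in DKO cells also at day 2 and 10 ng/ml. Ddit4 was 2.27-fold higher (CI 1.42 to 3.63, adjusted p = 0.0241) at 10 than at 2.2 ng/ml in DKO cells and 2.45-fold higher (CI 1.53 to 3.92, adjusted p = 0.0073) in WT cells. The DKO call was lost without DKO 10 ng/ml replicate 3 or without DKO 2.2 ng/ml replicate 2 or 3 (0.0555 to 0.165). Kdm3a read 207, 196 and 229 in DKO cells and 219.9, 218 and 231 in WT cells at day 0. Kdm3a at day 2 read 186, 154 and 177 in DKO cells and 197, 201 and 208 in WT cells. Kdm3a at day 4 read 206, 189 and 174 in DKO cells and 247, 221 and 206 in WT cells at 2.2 ng/ml, and 256, 235 and 246 in DKO cells and 213, 160.3 and 211 in WT cells at 10 ng/ml. Kdm3a, a histone demethylase, was above in DKO cells at 10 ng/ml, a log2 difference of 0.35 ± 0.12 (adjusted p = 0.0586), which was called without WT 10 ng/ml replicate 1 (0.42, 0.0477), or without WT 10 ng/ml replicate 3 (0.41, 0.0452), or with dim genes filtered out (0.0426), or after a further quantile normalization (0.0488), or with the replicate block (0.0478). Its step in DKO cells was 0.38 ± 0.12 (adjusted p = 0.0533), called with dim genes filtered out (0.0365), or after cyclic loess (0.0432), or after a further quantile normalization (0.0469), or with the replicate block (0.0431). Its step differed between the genotypes by 0.59 ± 0.17 (adjusted p = 0.033), lost without DKO 10 ng/ml replicate 1 or 3 or without DKO 2.2 ng/ml replicate 2 or 3 or without WT 10 ng/ml replicate 2 or without WT 2.2 ng/ml replicate 1 (0.0609 to 0.112), or after cyclic loess (0.0714), or when only the compared groups were fitted (0.0823). The group means of Cited2 lay between 161 and 282, those of Kdm4b, another demethylase, between 56.6 and 87.3, and those of Narf, which binds prelamin in the nucleus, between 49.6 and 77.1. The step of Cited2 in WT cells was -0.41 on the log2 scale (adjusted p = 0.07). It was called without WT 2.2 ng/ml replicate 3 (-0.55, 0.0189), without WT 10 ng/ml replicate 1 (-0.54, 0.0232), or with dim genes filtered out (0.0488). In DKO over WT at 10 ng/ml Cited2 read 0.38 (adjusted p = 0.107), called without WT 10 ng/ml replicate 1 (0.52, 0.0362).

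The last members differ in their patterns. Ndrg1, a stress and differentiation protein, fell in DKO cells at day 2 and at 2.2 ng/ml relative to day 0, and rose at 10 ng/ml. Ndrg1 read 49.7, 55.6 and 46.4 in DKO cells and 46.3, 54.9 and 65.1 in WT cells at day 0. Ndrg1 at day 2 read 31.3, 23.9 and 34.0 in DKO cells and 115, 119 and 70.8 in WT cells. Ndrg1 at day 4 read 31.3, 28.7 and 33.0 in DKO cells and 179.8, 188 and 139.6 in WT cells at 2.2 ng/ml, and 221, 242 and 317 in DKO cells and 1157, 946 and 1085 in WT cells at 10 ng/ml. DKO arrays were below WT arrays in all 3 activated states, and in DKO cells the day 2 and 2.2 ng/ml arrays were below the day 0 arrays. In DKO cells Ndrg1 averaged 29.8 at day 2 and 31.0 at 2.2 ng/ml, near the guide. Its falls there and the folds against these 2 groups may therefore be too small. Ndrg1 was 3.37-fold lower (CI 2.58 to 4.40, adjusted p = 2.53e-06) in DKO than in WT cells at day 2, 5.42-fold lower (CI 4.15 to 7.07, adjusted p = 3.59e-09) at 2.2 ng/ml and 4.12-fold lower (CI 3.16 to 5.38, adjusted p = 1.42e-08) at 10 ng/ml. Its step to 10 over 2.2 ng/ml was 8.30-fold in DKO and 6.31-fold in WT cells, a log2 difference of 0.39 ± 0.26 (adjusted p = 0.507), while day 2 over day 0 differed by -1.63 ± 0.26 (adjusted p = 0.0019). Nrn1 read 11.1, 11.1 and 19.1 in DKO cells and 7.96, 14.5 and 8.89 in WT cells at day 0. Nrn1 at day 2 read 104, 75.6 and 39.4 in DKO cells and 144, 167 and 132 in WT cells. Nrn1 at day 4 read 84.1, 179 and 61.3 in DKO cells and 196, 134 and 225 in WT cells at 2.2 ng/ml, and 1079, 1096 and 1036 in DKO cells and 418, 263 and 491 in WT cells at 10 ng/ml. Nrn1, neuritin, a membrane-anchored protein known for nerve cell growth, was above all WT arrays in DKO cells at 10 ng/ml and below them at day 2. It was 2.83-fold higher (CI 1.73 to 4.63, adjusted p = 0.0034) in DKO cells at 10 ng/ml. The day 2 difference was -1.12 on the log2 scale (adjusted p = 0.0834), called without DKO day 2 replicate 1 (-1.43, 0.0317). The 2.2 ng/ml difference was -0.89 (adjusted p = 0.202), called without DKO 2.2 ng/ml replicate 2 (-1.33, 0.0307). The step was 11-fold higher (CI 6.73 to 17.99, adjusted p = 2.01e-07) in DKO and 2.09-fold higher (CI 1.28 to 3.42, adjusted p = 0.0364) in WT cells, a log2 difference of 2.40 ± 0.49 (adjusted p = 0.00226), and the WT call was lost without WT 10 ng/ml replicate 1 or 3 or without WT 2.2 ng/ml replicate 1 or 2 (0.066 to 0.164), or with a variance trend and robust moderation (0.0527). Ankrd37 read 98.0, 110.0 and 68.3 in DKO cells and 119, 108 and 128 in WT cells at day 0. Ankrd37 at day 2 read 109, 126 and 131 in DKO cells and 142, 142 and 134 in WT cells. Ankrd37 at day 4 read 111, 113 and 158 in DKO cells and 317, 177 and 183 in WT cells at 2.2 ng/ml, and 333, 304 and 365 in DKO cells and 150.3, 118 and 220.5 in WT cells at 10 ng/ml. Ankrd37, an ankyrin repeat protein, was below WT in DKO cells at day 2 and 2.2 ng/ml and above at 10 ng/ml. It was 1.73-fold lower (CI 1.27 to 2.36, adjusted p = 0.0379) in DKO cells at 2.2 ng/ml, a call lost without DKO 2.2 ng/ml replicate 1 or 2 or without WT 2.2 ng/ml replicate 1 (0.168 to 0.304), or when only the compared groups were fitted (0.138), and 2.11-fold higher (CI 1.55 to 2.88, adjusted p = 0.000907) at 10 ng/ml. Its step was 2.65-fold higher (CI 1.945 to 3.61, adjusted p = 8.52e-05) in DKO cells, against a log2 change of -0.46 ± 0.22 (adjusted p = 0.18) in WT cells, and the difference was 1.87 ± 0.31 (adjusted p = 0.000235). The WT step was called without WT 10 ng/ml replicate 3 (-0.71, 0.0309).

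Counted over the list, more members were lower than higher in DKO cells in each activated state. At day 0, 0 of 36 were called in either direction (background 0.0552% higher and 0.01% lower), by limma, with 1 member, Hif1a, at an unadjusted p under 0.05. At day 2, 0 were higher and 10 lower (27.8% of members, against 1.03% higher and 1.68% lower of all genes), in order of size Ndrg1, Epas1, Egln3, Ak4, Bnip3, Vegfa, Hilpda, Fam162a, Bnip3l and Hif1a. That count of 10 was 5 without WT day 2 replicate 1, 4 without WT day 2 replicate 2 and 6 without DKO day 2 replicate 3. At 2.2 ng/ml, 0 were higher and 10 lower (27.8%, against 1.65% and 2.06% of all genes), in order of size Epas1, Egln3, Ndrg1, Ak4, Bnip3, Fam162a, Hif1a, Ankrd37, P4ha1 and Stc2. At 10 ng/ml, 3 were higher (Nrn1, Stc2, Ankrd37) and 14 lower (8.33% and 38.9%, against 6.68% and 6.09% of all genes), led by Hif1a, Ndrg1, P4ha2, Egln3, Gys1, Gbe1, Epas1, Wsb1, Plod2 and Bnip3l. Hif1a, Epas1, Egln3, Fam162a and Ndrg1 were lower in all 3 states (13.9% of members, against 0.456% of all genes), and 20 members were lower in at least 1 (55.6% of members, against 7.82% of all genes). The median log2 difference of the 36 was -0.44 after 2 days, -0.32 with 2.2 ng/ml and -0.34 with 10 ng/ml, against 0.04, 0.0014 and 0.03 over all genes.

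**Figure D4:**
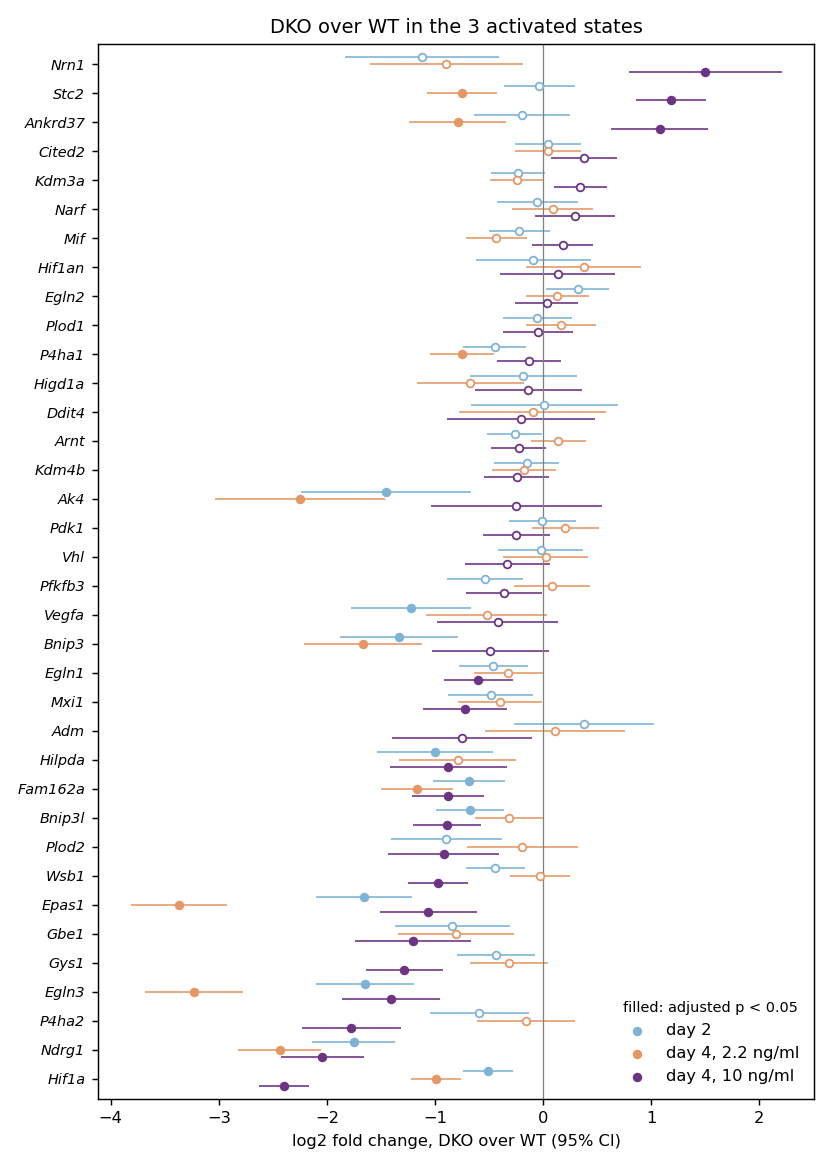
Log2 fold change of DKO over WT with its 95% CI for each of the 36 genes (rows) in the 3 activated states (colours); filled points have an adjusted p under 0.05. Hif1a at 10 ng/ml and Epas1 and Egln3 at 2.2 ng/ml lie far to the left (-2.40, -3.37 and -3.23), and Nrn1, Stc2 and Ankrd37 at 10 ng/ml are the filled points right of 0.

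Most members were higher at 10 than at 2.2 ng/ml in both genotypes. In DKO cells 22 were higher and 0 lower (61.1% of members, against 4.47% higher and 3.68% lower of all genes), led by Egln3 (11.9-fold), Nrn1 (11-fold), Ak4 (10.0-fold), Bnip3 (9.51-fold), Ndrg1 (8.30-fold), Gbe1 (5.801-fold), Vegfa (3.97-fold), Hilpda (2.98-fold), Fam162a (2.84-fold) and Higd1a (2.73-fold). In WT cells 25 were higher and 2 lower (69.4% and 5.56%, against 7.64% and 7.52% of all genes), led by Gbe1 (7.66-fold), Ndrg1 (6.31-fold), P4ha2 (4.93-fold), Bnip3 (4.19-fold), Plod2 (4.09-fold), Gys1 (3.81-fold), Vegfa (3.70-fold), Egln3 (3.34-fold), Mxi1 (3.22-fold) and Hilpda (3.17-fold). The 2 that fell in WT cells were Epas1 and Stc2. The 2 contrasts share no arrays, and 18 members, 16 of them targets, were called higher in both (50% of members, against 1.99% of all genes). Hif1a, Arnt, Vhl, P4ha2, Adm, Pfkfb3 and Pdk1 were called higher in WT cells alone, and Epas1, Ankrd37, Mif and Stc2 in DKO cells alone; of these 11 the difference between the genotypes was called for Hif1a, P4ha2, Epas1, Ankrd37 and Stc2. For Mif the difference was 0.61 ± 0.19 (adjusted p = 0.0565), near the threshold, and it was called without WT 2.2 ng/ml replicate 2 (0.73, 0.0203), or without DKO 2.2 ng/ml replicate 3 (0.74, 0.0206), or with dim genes filtered out (0.0407), or after cyclic loess (0.0402), or after a further quantile normalization (0.0325), or with a variance trend and robust moderation (0.0211). The difference between the genotypes in the step was called for 11 members: 7 higher in DKO than in WT cells (Nrn1, Epas1, Ak4, Stc2, Ankrd37, Egln3, Kdm3a) and 4 lower (P4ha2, Hif1a, Gys1, Wsb1), against 3.56% and 3.38% of all genes. In day 2 over day 0 the difference was called for 0 higher and 5 lower members (Bnip3, Egln3, Ndrg1, Epas1, Hif1a), against 0.306% and 0.742% of all genes.

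**Figure D5:**
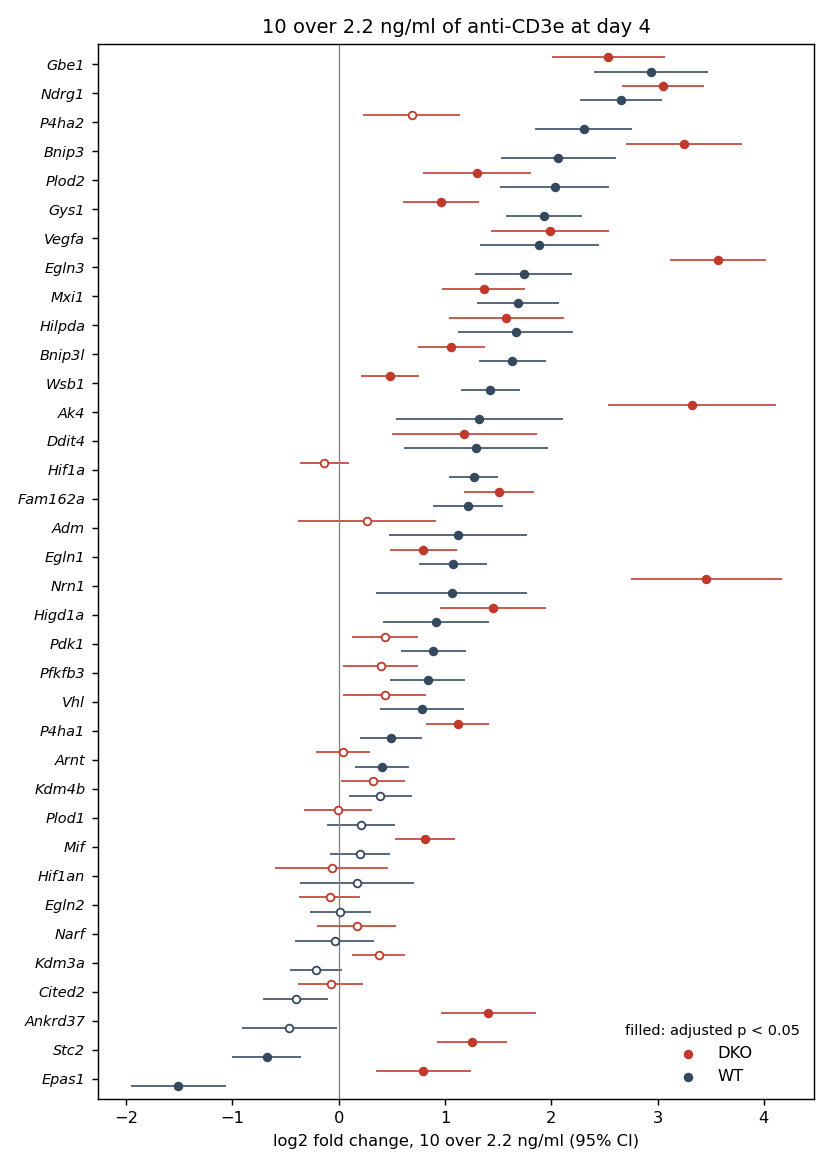
Log2 fold change of 10 over 2.2 ng/ml with its 95% CI at day 4 for each of the 36 genes (rows), DKO above WT in each row; filled points have an adjusted p under 0.05. Hif1a is open near 0 in DKO (-0.14) and filled in WT (1.27), while Gbe1, Ndrg1, Bnip3 and Vegfa are filled in both, and Epas1 and Stc2 lie on opposite sides of 0.

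Related genes outside the 36 were counted from 3 lists, also chosen with earlier results of these data known. Of 14 measured glycolytic hypoxia targets, 8 to 13 were higher than at day 0 in the activated states of DKO cells (background 11.6% to 16.4%) and 13 in each of WT cells (background 16.1% to 19.7%). Among them 0 were higher and 9 lower in DKO than in WT cells at day 2, 0 and 13 at 2.2 ng/ml, and 0 and 3 at 10 ng/ml. Of all genes 1.68%, 2.06% and 6.09% were lower in these 3 contrasts, and 1.03%, 1.65% and 6.68% higher; these shares also stand behind the lists that follow. At 10 over 2.2 ng/ml 13 of the 14 were higher in DKO cells and 9 in WT cells (background 4.47% and 7.64%), and 9 had a larger step in DKO cells by the test of the difference (background 3.56%). Slc2a3, a glucose transporter, averaged 539 ± 134 in DKO cells against 1209 ± 298 in WT cells at 10 ng/ml and was 2.24-fold lower (CI 1.59 to 3.15, adjusted p = 0.00123). Pgk1, a glycolytic enzyme, was 1.81-fold lower (CI 1.55 to 2.11, adjusted p = 1.07e-05) in DKO cells at 2.2 ng/ml. Of 20 other hypoxia-inducible genes measured, 1 was higher and 3 lower in DKO cells at day 2, 0 and 2 at 2.2 ng/ml, and 0 and 7 at 10 ng/ml. Those with the smallest p at 10 ng/ml were Vldlr, Hmox1, Car12 and Bhlhe41. Vldlr, a lipoprotein receptor, was 5.52-fold lower (CI 4.22 to 7.21, adjusted p = 6.27e-10) in DKO cells, and Hmox1, which breaks down heme, 2.98-fold lower (CI 2.17 to 4.10, adjusted p = 1.18e-05). The carbonic anhydrase Car12 was 2.76-fold lower (CI 1.951 to 3.90, adjusted p = 0.000102), and the repressor Bhlhe41 2.71-fold lower (CI 1.92 to 3.83, adjusted p = 0.000126). Of 11 partners of the HIF complex, 0 were called between the genotypes at day 2. Siah1a, which targets prolyl hydroxylases for degradation, was 2.05-fold higher (CI 1.67 to 2.51, adjusted p = 2.97e-05) in DKO cells at 2.2 ng/ml. At 10 ng/ml the coactivator Crebbp was 1.46-fold higher (CI 1.16 to 1.85, adjusted p = 0.024) and Os9, which binds HIF-1 alpha, 1.45-fold lower (CI 1.16 to 1.80, adjusted p = 0.0203).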

How the data were processed

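Total RNA of 24 CD4 T cell samples was measured on mouse gene arrays. The deposited values are linear intensities that the authors made with RMA, per the submitters' processing notes; the software version is not given in the sources used here. Of 35556 probe sets, 21789 carried 1 gene symbol, 1621 several and 12146 none. Intensities were put on the log2 scale and fitted with limma 3.58.1 in R 4.3.3, as 8 group means over all 24 arrays, with 14 contrasts and Benjamini-Hochberg adjustment over 19938 genes. The members and lists were chosen with earlier results of these data known. In each contrast the called members were named by size, up to 10 a direction, besides the 8 regulators; from the glycolytic, other hypoxia and HIF partner lists, up to 4. Alternatives were a filter on dim genes, averaging the probe sets of each gene, cyclic loess, quantile normalization, the compared groups alone, a replicate block, a variance trend with robust moderation, and each array left out; leaving out WT replicate 3 of day 2 and of 2.2 ng/ml together was added after seeing the data. The number of arrays limits the precision. The code was tested on simulated data.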

Additional observations from a re-analysis of the deposited data

Results flagged for a closer look

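For 16 pairs of a member and a contrast the effect differed between DKO and WT cells by limma's test of the difference itself, given here as DKO minus WT on the log2 scale ± SE with p adjusted over all genes. In day 2 over day 0 the change was smaller or turned in DKO cells for 5 members: Bnip3 by -1.87 ± 0.37 (adjusted p = 0.0109), Egln3 by -1.80 ± 0.31 (adjusted p = 0.00319), Ndrg1 by -1.63 ± 0.26 (adjusted p = 0.0019), Epas1 by -1.56 ± 0.31 (adjusted p = 0.00937) and Hif1a by -0.80 ± 0.16 (adjusted p = 0.0109). Of these, Ndrg1 fell in DKO cells and rose in WT cells. In the step to 10 over 2.2 ng/ml the log2 change was higher in DKO than in WT cells for 7 members: Nrn1 by 2.40 ± 0.49 (adjusted p = 0.00226), Epas1 by 2.31 ± 0.31 (adjusted p = 1.66e-05), Ak4 by 2.00 ± 0.54 (adjusted p = 0.0226), Stc2 by 1.93 ± 0.22 (adjusted p = 2.79e-06), Ankrd37 by 1.87 ± 0.31 (adjusted p = 0.000235), Egln3 by 1.83 ± 0.31 (adjusted p = 0.000376) and Kdm3a by 0.59 ± 0.17 (adjusted p = 0.033). The levels of Epas1 and Egln3 at 10 ng/ml were still lower in DKO than in WT cells. The log2 change in that step was lower in DKO than in WT cells for 4 members: P4ha2 by -1.62 ± 0.31 (adjusted p = 0.00145), Hif1a by -1.40 ± 0.16 (adjusted p = 2.19e-06), Gys1 by -0.97 ± 0.25 (adjusted p = 0.0149) and Wsb1 by -0.94 ± 0.19 (adjusted p = 0.00202). As given above, the step differences of Ak4, Kdm3a and Gys1 were lost under some alternatives, as were the day 2 differences of Bnip3 and Hif1a. Hif1a, Epas1 and Egln3 differed in both steps, and for Epas1 and Egln3 the 2 differences had opposite signs.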

How the results depend on the processing

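Of 221 called pairs of a member and a contrast, 185 were called under every alternative that could test them, 36 were lost under at least 1 (32 with 1 array left out) and 0 were reversed. In the other direction, 47 pairs not called were called under at least 1 alternative, 22 of them under more than 1 and 31 with 1 array left out. In DKO over WT at 10 ng/ml, Pdk1 (-0.47, adjusted p = 0.0217), Vegfa (-0.80, adjusted p = 0.0411) and Adm (-1.11, adjusted p = 0.0238) were called without WT 10 ng/ml replicate 2. The count of members called in DKO over WT at day 2, 10, ranged between 4 and 10 when single arrays were left out: it was 5 without WT day 2 replicate 1, 4 without WT day 2 replicate 2 and 6 without DKO day 2 replicate 3. Same-numbered arrays did not deviate together (r between -0.152 and 0.264, 4 of 84 pairs over 0.1, 10 of 24 arrays closest to their own number), so the numbers were not taken as pairs. With the replicate block, 10 members were called in DKO over WT at day 2 and 18 at 10 ng/ml, and 1 call, Hif1a in DKO cells at 10 ng/ml over day 0, was lost (adjusted p = 0.0561). The block gained 2 calls, Kdm3a in DKO over WT at 10 ng/ml (adjusted p = 0.0478) and Kdm3a at 10 over 2.2 ng/ml in DKO cells (adjusted p = 0.0431). With 3 arrays a group, small differences of dim members such as Adm and P4ha2 are poorly resolved. Over all genes, the calls in DKO over WT at day 0 numbered 13, against 4 after cyclic loess, 2 when only the compared groups were fitted, and 4 to 7 without DKO day 0 replicate 1 or 2 or WT day 0 replicate 2. At day 2 they numbered 541, against 298 to 315 without WT day 2 replicate 1 or 2 or DKO day 2 replicate 3. At 2.2 ng/ml they numbered 739, against 462 when only the compared groups were fitted and 489 without DKO 2.2 ng/ml replicate 2. The step to 10 over 2.2 ng/ml in DKO cells had 1625, against 1058 without DKO 2.2 ng/ml replicate 1. The difference in day 2 over day 0 had 209, against 98 to 132 without WT day 2 replicate 1 or 2, DKO day 0 replicate 2 or DKO day 2 replicate 3. The median log2 change of all genes in WT cells at day 2 over day 0 was -0.11, against 0.03 after cyclic loess and 0.04 after quantile normalization, and the share of calls that were higher was 49.1%, against 59.2% with the filter on dim genes. The cause of these shifts was not tested.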
